A study of Mus musculus with 24 samples.

Results

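The genes examined here are the immediate-early transcription factor genes of the AP-1 and EGR families in mouse dermal fibroblasts: Fos, Fosb, Fosl1, Fosl2, Jun, Junb, Jund, Egr1, Egr2 and Egr3. They were chosen by name, with earlier results of these data known, so counts of members beside all genes are descriptions. Of these 10 genes, 9 have a row among the 13479 genes of the deposited count table and all 9 passed the filter on low counts. Fosb was not analysed here. RNA came from primary dermal fibroblasts of mouse skin at passage 5 and was counted by a bulk form of MARS-seq, which tags the 3′ ends of transcripts with unique molecular identifiers (UMIs). The cells were wild type (WT, 4 libraries per time), carried a mutation named NIK X mut (MUT, called TAD in the library names, 2 libraries per time) or were NIK knockouts (KO, 2 libraries per time). They were untreated or had received TWEAK, a cytokine of the TNF family, at 100 ng/ml for 6 or 24 h, which makes 24 libraries. The early library names say 3 h where the titles say 6 h, and 6 h is used. What NIK X mut changes in the protein, the mouse strain and whether replicates came from separate animals are not stated in the labels, so p-values measure the spread between these samples. The untreated libraries are the only controls, so time in culture and treatment cannot be told apart.

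AP-1 is a family of dimers built from Jun proteins with one another or with Fos proteins, which bind a short palindromic site and drive genes of proliferation, matrix breakdown and inflammation. EGR proteins are zinc finger factors that bind GC-rich sites. Both families are classically switched on within minutes of a growth factor or cytokine signal by MAP kinases acting on factors already present, and many of their transcripts are short-lived. In fibroblasts, AP-1 is known as an activator of matrix metalloproteinase genes. Map3k14 encodes NIK, a kinase at the head of the noncanonical NF-kB pathway, which TNF-family receptors such as Fn14, the receptor of TWEAK, activate.

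The promoters of Jun, Junb and Fos are shown because the first and second rose in WT and for the third no rise passed. Each is the 250 bases before the RefSeq start on the GRCm38.p6 build, read on the gene's own strand from chr4:95052223-95052472 (minus strand, Jun), chr8:84978749-84978998 (minus strand, Junb) and chr12:85473640-85473889 (plus strand, Fos). Capitals mark matches to the motifs named after them.
Jun: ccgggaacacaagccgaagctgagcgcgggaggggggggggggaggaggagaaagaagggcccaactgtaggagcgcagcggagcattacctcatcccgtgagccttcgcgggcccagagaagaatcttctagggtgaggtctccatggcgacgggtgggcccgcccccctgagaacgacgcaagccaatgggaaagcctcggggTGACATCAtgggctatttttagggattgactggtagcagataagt
Junb: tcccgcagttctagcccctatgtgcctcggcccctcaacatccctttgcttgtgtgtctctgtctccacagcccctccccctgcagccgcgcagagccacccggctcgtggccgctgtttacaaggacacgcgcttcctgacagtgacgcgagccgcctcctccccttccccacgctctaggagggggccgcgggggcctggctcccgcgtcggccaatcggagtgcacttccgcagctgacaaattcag
Fos: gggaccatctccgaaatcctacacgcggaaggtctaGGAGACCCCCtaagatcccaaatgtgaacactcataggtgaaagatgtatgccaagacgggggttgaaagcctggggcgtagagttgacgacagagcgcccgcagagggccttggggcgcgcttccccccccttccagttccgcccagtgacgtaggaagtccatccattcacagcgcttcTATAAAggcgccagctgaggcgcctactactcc
Motifs were searched on both strands: the AP-1 heptamer TGACTCA, the cAMP response octamer TGACGTCA, its variant TGACATCA known from the Jun promoter, the EGR nonamer GCGNGGGCG, TATAAA, and, by name alone, the CArG box bound by serum response factor and a kB decamer. The Jun window held TGACATCA from position -45 to -38 relative to the start, an octamer present in 2.93% of 32851 RefSeq promoter windows of this length. The Fos window held TATAAA from -33 to -28, found in 12.4% of the windows, and a kB decamer on the opposite strand from -214 to -205, found in 3.90%. None of these letters occurs in the Junb window, and TGACTCA, which 4.46% of the windows hold, is in none of the 3. These matches are descriptions of letters, and no binding was measured.

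Library totals ran from 889863 to 4342981 UMIs with 12333 to 13338 genes detected. Map3k14 itself had 4 UMIs over the 6 KO libraries, against 34 to 186 in each WT library and 63 to 164 in each MUT library. Levels of single genes are given in CPM, UMIs scaled with TMM factors to the library's total over genes past the filter. The marker sums below were scaled to the library total alone. Nfkb2, a gene of the noncanonical pathway, went in WT from 102 ± 14.1 (SD, n = 4) to 542 ± 58.3 at 6 h. In KO it went from 98.9 ± 18.1 (n = 2) to 221 ± 3.70. The 7 fibroblast markers summed to 12045 to 19388 CPM in every library. Their counts over all libraries were uneven, from 174 UMIs of Lum to 379943 of Vim. Muscle and pericyte markers summed to 68.6 to 364 CPM, and markers of keratinocytes, endothelium, leukocytes, melanocytes or Schwann cells, and adipocytes to at most 44.3, with Krt5, Krt1, Pecam1, Ptprc, Adgre1, Mlana, Dct, Adipoq and Plin1 without a row. The libraries fell into 2 sets on the first principal component, which held 25.7% of the variance. WT replicates 1 and 2 and all KO libraries lay from -39.8 to -6.37, and WT replicates 3 and 4 and all MUT libraries from 6.69 to 41.3. This component also varied with treatment: within each WT pair, MUT and KO the treated libraries lay higher than the untreated ones. WT replicate 1 went from -39.8 to -16.1 at 6 h and WT replicate 3 from 6.69 to 41.3. What the sets are is not stated, so values within each WT pair are given beside the pooled ones.

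In WT cells Jun, Junb, Fosl1 and Egr2 were higher after 6 and 24 h of TWEAK than in untreated cells and Jund was lower at 24 h, while Fos, the founding Fos gene, had values below 0 that did not pass. At 6 h 4 of 9 members passed edgeR's quasi-likelihood test with Benjamini-Hochberg adjustment over 11337 genes, all higher, where 6.41% of all genes were called in either direction and 4.35% higher. At 24 h 5 of 9 were called, where 6.87% of all genes were, 3.68% higher and 3.19% lower. The median log2 change of the 9 members was 1.30 at 6 h and 1.01 at 24 h, against -0.01 and 0.00 over all genes tested. In MUT 5 of 9 rose at 6 h (1.98% of all genes called, 1.5% higher) and 1 of 9 at 24 h (0.688%, 0.494% higher). In KO none of 9 was called at 6 h (0.0794%), at 24 h (0%) or between the times (0%), none had an unadjusted p under 0.05, and DESeq2 also called 0. In bulk RNA, fewer expressing cells and less RNA per cell cannot be told apart.

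**Figure D1:**
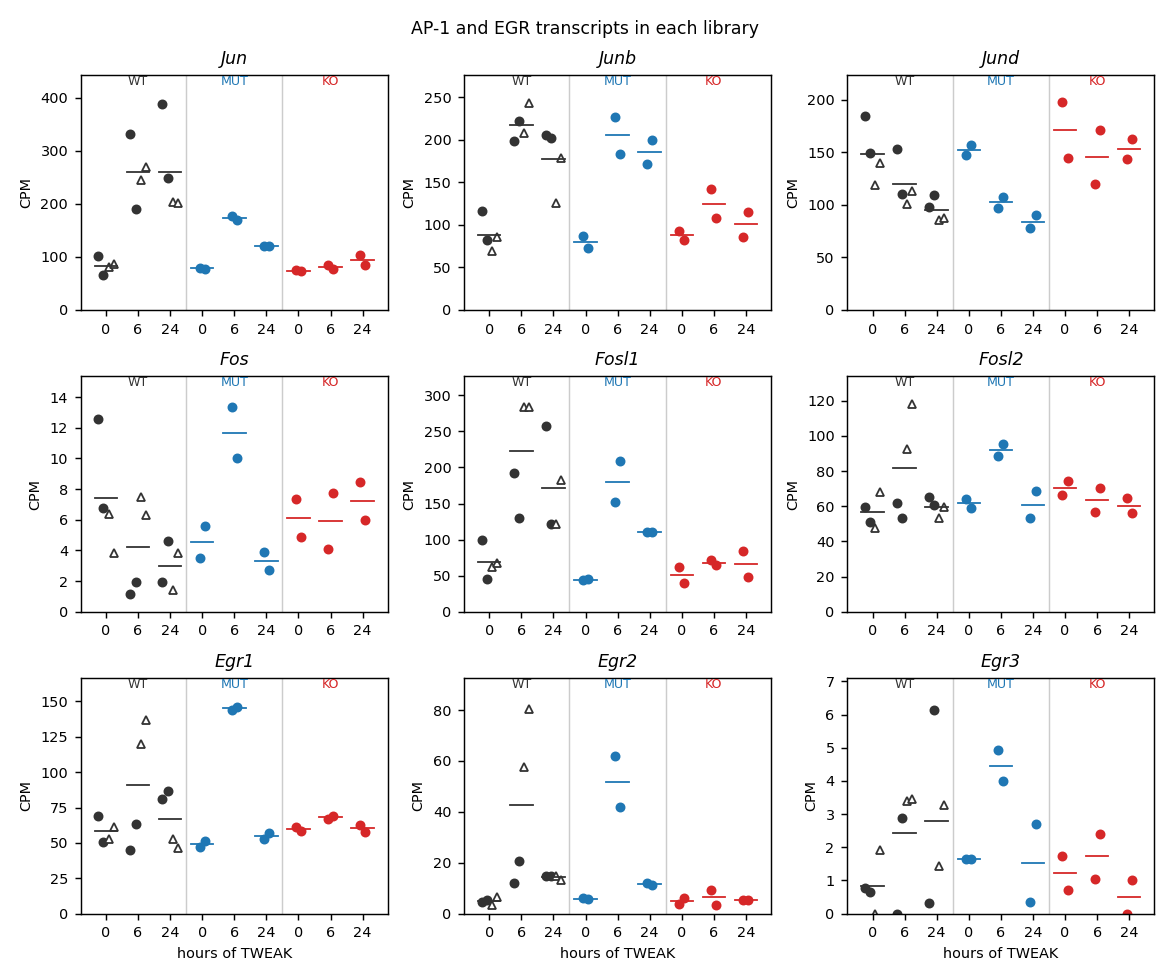
TMM-normalised CPM (y axis, linear from 0) of the 9 genes by hours of TWEAK (x axis) in WT, MUT and KO, 1 point per library, with bars at group means. Open triangles are WT replicates 3 and 4 and filled circles all other libraries. Jun in WT lies at 65.0 to 102 CPM untreated and at 191 to 387 after TWEAK, and Egr1 and Egr2 at 6 h are highest in WT replicates 3 and 4 and in MUT.

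Among the Jun subunits, Jun, the founding and strongly activating one, stood in WT replicates 1 to 4 at 102, 65.0, 80.2 and 87.5 CPM untreated. At 6 h it stood at 332, 191, 246 and 269 CPM, and at 24 h at 387, 248, 203 and 202. Every treated WT library was above every untreated one. The share of all genes with such a separation was not counted, here or wherever separations of libraries are given below. The rise was 3.09-fold at 6 h (log2 1.63 ± 0.20 SE, adjusted p = 1.14e-05) and 3.12-fold at 24 h (1.64 ± 0.20, 7.48e-06), with no difference called between the times (0.01, 95% interval -0.38 to 0.41). Within the WT pairs Jun rose at 6 h by 1.63 ± 0.24 in replicates 1 and 2 and by 1.62 ± 0.24 in replicates 3 and 4. At 24 h the values were 1.94 ± 0.23 and 1.27 ± 0.24, a difference of -0.66 ± 0.33 that did not pass (adjusted p = 0.998).

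Junb, a Jun protein known to temper as well as to support transcription by its partners, stood in WT at 116, 82.4, 68.8 and 86.2 CPM untreated, at 198, 222, 207 and 243 at 6 h, and at 205, 202, 125 and 179 at 24 h. The treated libraries did not overlap the untreated ones. Its log2 rise was 1.30 ± 0.18 at 6 h (adjusted p = 4.67e-05) and 1.01 ± 0.17 at 24 h (adjusted p = 7.10e-04). Within the WT pairs the rise ran from 0.97 to 1.55 and passed the test in both pairs at both times.

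Jund, the Jun member that is typically expressed in resting cells, moved the other way. Its WT libraries stood at 184, 149, 118 and 139.6 CPM untreated, 153, 110.3, 101 and 113 at 6 h, and 98.1, 109, 85.7 and 87.6 at 24 h. The untreated and 6 h libraries overlapped, and those of 24 h lay below all untreated ones. At 24 h Jund fell by 0.64 ± 0.16 on the log2 scale (adjusted p = 0.0176), and at 6 h the value was -0.32 ± 0.16 (adjusted p = 0.300). The 24 h call was lost without untreated replicate 1 (-0.51, adjusted p = 0.0645), without 24 h replicate 3 (-0.59, 0.0598) or replicate 4 (-0.60, 0.0522), and when only the compared groups were fitted (-0.64, 0.0534).

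**Figure D2:**
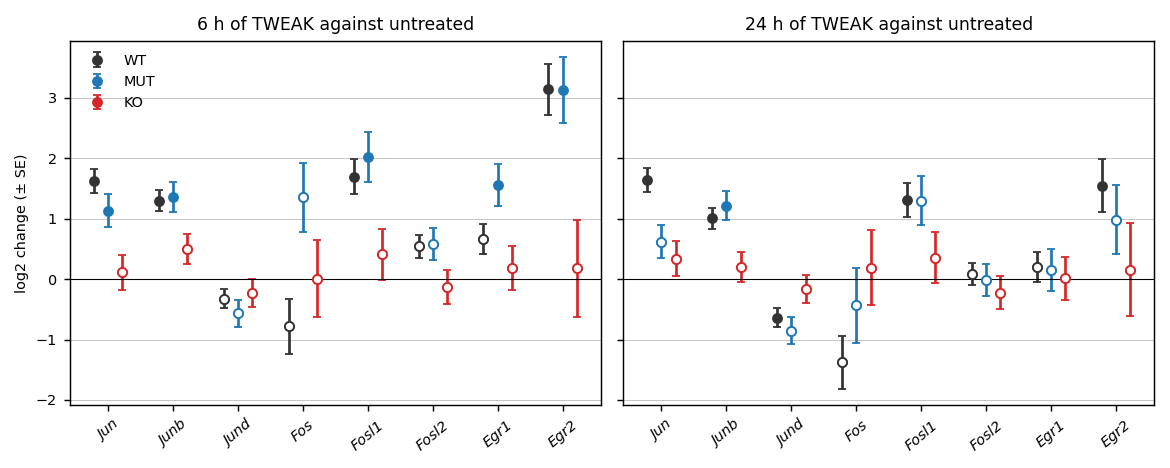
Log2 change from untreated (y axis, ± SE) of 8 genes (x axis) after 6 h (left) and 24 h (right) of TWEAK in WT, MUT and KO, with filled points past an adjusted p of 0.05. Egr3 is left out for its low counts. Jun lies at 1.63 in WT, 1.13 in MUT and 0.11 in KO at 6 h, and no KO point is filled.

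Of the Fos subunits, Fosl1, which encodes Fra-1, a late and long-lasting Fos protein that lacks the strong activation domain of Fos, was the one that rose. It stood in WT at 100.1, 44.7, 62.4 and 68.2 CPM untreated, 192, 129, 284 and 284 at 6 h, and 257, 121, 122 and 183 at 24 h. The treated libraries lay above all untreated ones. The log2 rise was 1.69 ± 0.29 at 6 h (adjusted p = 6.12e-04) and 1.31 ± 0.28 at 24 h (0.00523). In the WT pairs the 6 h rise was 1.13 ± 0.35 in replicates 1 and 2 (adjusted p = 0.0822) and 2.12 ± 0.35 in replicates 3 and 4 (3.13e-04), and the difference of 0.99 ± 0.49 did not pass (0.355). At 24 h the pairs gave 1.39 ± 0.34 (0.0120) and 1.22 ± 0.35 (0.0505).

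Fos was the scarcest member after Egr3, with 1 to 33 UMIs per library. Its WT libraries held 12.6, 6.76, 6.37 and 3.86 CPM untreated, 1.19, 1.91, 7.45 and 6.31 at 6 h, and 1.97, 4.61, 1.44 and 3.83 at 24 h. Both treated groups overlapped the untreated one. The log2 value was -0.78 ± 0.46 at 6 h (adjusted p = 0.393) and -1.38 ± 0.44 at 24 h (0.0649). The 24 h fall passed with the replicate number as a block (-1.38, 0.0438), with the WT pairs as separate groups (-1.33, 0.0165), without untreated replicate 4 (-1.55, 0.0433) and without 24 h replicate 2 (-1.74, 0.0413).

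Fosl2, which encodes Fra-2, stood in WT at 59.4, 51.1, 47.6 and 68.2 CPM untreated and at 61.7, 53.5, 92.8 and 118 at 6 h, so only replicates 3 and 4 exceeded all untreated libraries. At 24 h it was back at 53.1 to 65.3 CPM. The 6 h value of 0.54 ± 0.19 did not pass (adjusted p = 0.105), and it passed with the WT pairs as groups (0.46, 0.0327), without 6 h replicate 1 (0.64, 0.0497) and without 6 h replicate 2 (0.71, 0.0143).

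Of the EGR genes, Egr2, which encodes Krox20, had the widest response. In WT it stood at 4.57, 5.47, 3.40 and 6.43 CPM untreated, 11.9, 20.5, 57.6 and 80.3 at 6 h, and 14.8, 14.7, 14.7 and 13.1 at 24 h. Every treated library was above every untreated one, the 6 h libraries spread from 11.9 to 80.3 CPM, and those of 24 h lay close together inside the 6 h range. The rise was 8.85-fold at 6 h (log2 3.15 ± 0.42, adjusted p = 4.09e-05) and 2.92-fold at 24 h (1.55 ± 0.44, 0.0332). It rested at 24 h on 24 to 51 UMIs per library, and the call was lost without any 1 of untreated replicates 1, 2 or 3 (adjusted p = 0.0735, 0.0762 and 0.0878) or 24 h replicates 1, 2 or 3 (0.0602, 0.0607 and 0.0694). Egr2 was also the member called between the times in WT (1 of 9, where 3.87% of all genes were called and 2.23% lower), falling by 1.60 ± 0.36 from 6 to 24 h (adjusted p = 0.0176). That call was lost without 6 h replicate 3 (-1.44, 0.0677) or replicate 4 (-1.10, 0.106), and when only the compared groups were fitted (-1.60, 0.167).

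Egr1, the EGR factor most often used as a sign of recent MAP kinase signalling, stood in WT at 68.9, 50.8, 53.1 and 61.1 CPM untreated and at 45.1, 63.0, 119.9 and 137 at 6 h. Replicates 1 and 2 stayed within or below the untreated range, and replicates 3 and 4 were above it. The pooled value of 0.66 ± 0.25 did not pass (adjusted p = 0.129). It passed without 6 h replicate 1 (0.86, 0.0183), without 6 h replicate 2 (0.82, 0.0491) and with the WT pairs as groups (0.54, 0.00573). At 24 h Egr1 stood at 81.3, 87.0, 52.8 and 46.5 CPM (log2 0.20 ± 0.25, adjusted p = 0.706). Egr3 had 7 UMIs over the 4 untreated WT libraries, 17 at 6 h and 32 at 24 h, with 20 of these 32 in 1 library, and no change of it passed.

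The WT pairs differed in the Egr1 response at 6 h. Of the 9 members 4 passed in replicates 1 and 2 (3.61% of all genes called) and 6 in replicates 3 and 4 (10.4%), and at 24 h 6 (7.7%) and 3 (4.56%). Egr1 changed by -0.10 ± 0.18 in replicates 1 and 2 and by 1.18 ± 0.17 in replicates 3 and 4, and this difference of 1.28 ± 0.25 passed over all genes (adjusted p = 0.0127), where 95 genes (0.838%) differed. It was the single member of 9 to do so, in a division of the WT libraries that the data themselves gave. Egr2 rose by 1.78 ± 0.38 and 3.88 ± 0.35, both past the test, and the difference of 2.10 ± 0.55 did not pass (adjusted p = 0.0741). Fos fell in replicates 1 and 2 by 2.46 ± 0.63 (adjusted p = 0.0279) and had a value of 0.37 ± 0.52 in replicates 3 and 4, with a difference of 2.83 ± 0.84 (adjusted p = 0.107). At 24 h no gene differed between the pairs (0%), where Egr1 had an unadjusted p of 0.0107. WT replicate 1 at 6 h was the shallowest of all libraries, and what part depth or the library set had in these differences was not tested.

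**Figure D3:**
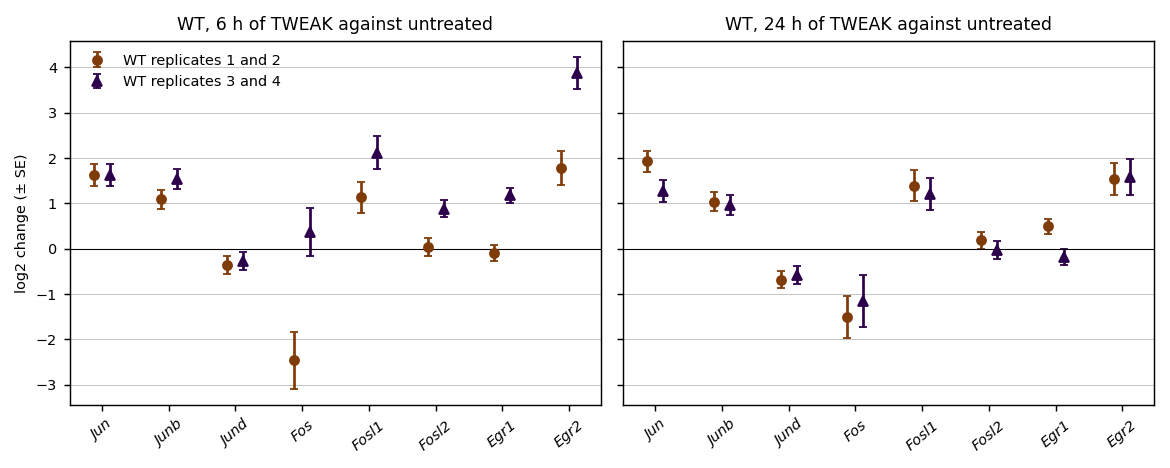
Log2 change from untreated (y axis, ± SE) of 8 genes (x axis) in WT replicates 1 and 2 (circles) and in WT replicates 3 and 4 (triangles) after 6 h (left) and 24 h (right) of TWEAK. At 6 h Jun lies at 1.63 and 1.62, whereas Egr1 lies at -0.10 and 1.18 and Egr2 at 1.78 and 3.88.

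In MUT cells the same kinds of subunit rose at 6 h, and Egr1 with them. Jun went from 79.9 and 77.5 CPM to 177 and 169 (log2 1.13 ± 0.28, adjusted p = 0.0338), and Junb from 86.5 and 72.9 to 227 and 183 (1.36 ± 0.25, 0.00530). Fosl1 went from 43.5 and 45.8 CPM to 152 and 209 (2.02 ± 0.41, 0.0101). For each of these genes both treated libraries lay above both untreated ones, a separation whose share over all genes was not counted. Egr2 went from 6.08 and 5.56 CPM to 61.8 and 42.0 (3.13 ± 0.55, 0.00338), and Egr1 from 47.2 and 51.0 to 144 and 146 (1.56 ± 0.35, 0.0178). Fos went from 3.51 and 5.56 CPM to 13.3 and 9.99, a value of 1.36 ± 0.57 that did not pass (adjusted p = 0.275). With 2 libraries a group, leaving out 1 left 0 to 2 members past the test. Jun and Egr1 lost their calls without any 1 of the 4 libraries (adjusted p from 0.153 to 0.244 and from 0.102 to 0.189). Fosl1 lost its call without untreated replicate 1 or 2 or 6 h replicate 2 (0.140, 0.150 and 0.132), Junb without untreated replicate 1 or 2 or 6 h replicate 1 (0.0504, 0.127 and 0.0636), and Egr2 without untreated replicate 1 or 2 (0.0843 and 0.0911). The log2 values themselves stayed between 1.11 and 1.18 for Jun and between 1.52 and 1.63 for Egr1.

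At 24 h in MUT Junb stood at 171 and 200.1 CPM and was the member called (1.22 ± 0.25, adjusted p = 0.0170), and the call was lost without any 1 of the 4 libraries (1.10 to 1.34, 0.0652 to 0.318). Jun stood at 120.3 and 121 CPM (0.62 ± 0.27, 0.424), Fosl1 at 110.1 and 109.9 (1.30 ± 0.40, 0.198) and Jund at 78.0 and 90.2 (-0.85 ± 0.23, 0.107). All 3 lay outside their untreated MUT libraries, and none of them passed in the main fit. With 2 libraries a group such a separation is weak, and its share over all genes was not counted. Fosl1 and Jund passed with the WT pairs as groups (1.30, adjusted p = 0.0439 and -0.85, 0.0166). In a fit of the compared groups alone they passed (1.29, 8.26e-05 and -0.86, 0.00133), as did Jun (0.61, 0.00910) and Egr2 (0.97, 0.0488). DESeq2 called Jund (-0.84, 0.0357). With the replicate number as a block Fosl1 and Jund also passed (1.30, adjusted p = 0.00821 and -0.86, 0.0130). Same-numbered MUT libraries correlated at 0.00108 to 0.0710 in their deviations from the group means, so a block has little basis in MUT. Egr1 was back at 52.6 and 56.6 CPM and Egr2 at 12.0 and 11.2. None of 9 members was called between 6 and 24 h (0.582% of all genes were), 4 had an unadjusted p under 0.05, and DESeq2 called Egr1 and Egr2. With the replicate number as a block Egr1 and Egr2 also passed (-1.41, adjusted p = 0.0138 and -2.13, 0.00359), and with the WT pairs as groups they passed together with Fos (-1.78, 0.0203) and Fosl2 (-0.59, 0.0456). In a fit of the compared groups alone these 4, Fosl1 and Jun passed, all lower at 24 h.

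For no member did the difference between the MUT and WT responses pass: 0 of 9 passed at 6 h, where 0% of all genes did and 2 members had an unadjusted p under 0.05, and 0 of 9 at 24 h, again with 0% of all genes and with 1 member unadjusted. DESeq2 called 0 members at both times. The members with an unadjusted p under 0.05 were Fos at 6 h, with a difference in response of 2.14 ± 0.73 (95% interval 0.62 to 3.66), Egr1 at 6 h (0.90 ± 0.42, interval 0.02 to 1.77) and Jun at 24 h (-1.02 ± 0.33, interval -1.72 to -0.33). Against WT replicates 3 and 4 alone these differences were 0.99 ± 0.69, 0.39 ± 0.24 and -0.66 ± 0.33. Their unadjusted p in the same test was 0.166, 0.121 and 0.0598. For Junb the interval at 6 h was -0.56 to 0.68, and for Egr2 -1.32 to 1.28. Between untreated MUT and WT cells 0 of 9 passed (0% of all genes called, 0 members with an unadjusted p under 0.05, 0 by DESeq2). Levels in treated cells, compared after the data had been seen, differed in Jun at 24 h (1 of 9, where 1.15% of all genes were called and 0.741% lower), which was lower in MUT (log2 -1.11 ± 0.24, adjusted p = 0.0301). Against WT replicates 3 and 4, the pair that lay with MUT, the value was -0.74 ± 0.23 (adjusted p = 0.0889; 2.02% of all genes called), and the call was lost without WT 24 h replicate 1 (-0.85, 0.0578), replicate 2 (-1.13, 0.0648) or either MUT library (0.415 and 0.251), and when only the compared groups were fitted (-1.12, 0.109). At 6 h 0 of 9 differed (0% of all genes), 3 had an unadjusted p under 0.05 and DESeq2 called 0.

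In KO cells no member's change from untreated passed, with 2 libraries a group. Jun stood at 75.5 and 72.8 CPM untreated, 84.5 and 76.7 at 6 h, and 104 and 84.0 at 24 h. All 4 treated KO libraries lay above both untreated ones, and below every treated WT library. The log2 change was 0.11 with a 95% interval of -0.49 to 0.71 at 6 h and 0.34 with -0.25 to 0.93 at 24 h, so a rise of the WT size lies outside both intervals. Junb stood at 92.3 and 82.6 CPM untreated, 142 and 108 at 6 h, and 85.6 and 115 at 24 h (0.50 ± 0.25 and 0.20 ± 0.25, neither called). Fosl1 stood at 61.7 and 39.2, 72.1 and 64.1, and 83.8 and 47.5 CPM (0.41 ± 0.43 and 0.35 ± 0.42). For both genes each 6 h library lay above the untreated ones. The 6 h interval of Junb, -0.03 to 1.03, overlaps the 0.93 to 1.67 of WT. That of Fosl1, -0.48 to 1.29, overlaps the 1.10 to 2.29 of WT. Egr2 stood at 3.88 and 6.30, 9.28 and 3.37, and 5.43 and 5.50 CPM, from 7 to 11 UMIs per library. Its interval of -1.49 to 1.85 at 6 h lies below the pooled 3.15 of WT. That interval includes the 1.78 of WT replicates 1 and 2, the pair that lay with KO. The interval of -1.43 to 1.75 at 24 h includes the 1.55 of WT. Egr1 stayed between 58.0 and 68.9 CPM in all 6 KO libraries, Jund between 119.5 and 198, and Fos between 4.12 and 8.44. Untreated KO and WT cells gave no difference for any member (0 of 9 called, 0.00882% of all genes, 0 with an unadjusted p under 0.05, 0 by DESeq2).

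The difference between the KO and WT responses passed for no member: 0 of 9 at 6 h (0.097% of all genes called) and 0 of 9 at 24 h (0.265%). At an unadjusted p under 0.05 there were 4 and 2 members, and DESeq2 called 1, Jun, and 0. For Jun the difference was -1.52 ± 0.35 at 6 h (95% interval -2.24 to -0.79, adjusted p = 0.198) and -1.30 ± 0.34 at 24 h (-2.01 to -0.59, 0.164). With the replicate number as a block it passed at both times (-1.51, adjusted p = 0.00589 and -1.28, 0.00572). Same-numbered KO libraries correlated at -0.282 to 0.0996 in their deviations from the group means, so a block has little basis in KO. Against WT replicates 1 and 2 alone the Jun difference passed at 24 h (-1.60, 0.0179, with 0.97% of all genes called) and not at 6 h (-1.52, 0.107, with 0.123%). The remaining differences at 6 h included Egr2 (-2.97 ± 0.92), Fosl1 (-1.29 ± 0.51) and Junb (-0.80 ± 0.31), with adjusted p from 0.663 to 0.913.

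Levels in treated cells, a comparison added after the data had been seen, separated KO from WT for 3 of 9 members at each time, all lower in KO. At 6 h (1.27% of all genes called, 0.838% lower) these were Jun, Fosl1 and Egr2. Jun stood at 76.7 to 84.5 CPM in KO and 191 to 332 in WT (log2 -1.68 ± 0.26, adjusted p = 0.00104). Against WT replicates 1 and 2, which lay with KO, the value was -1.68 ± 0.25 (3.69e-04), in a comparison that called 1.54% of all genes. Egr2 was at -2.97 ± 0.59 (0.0108) and against that pair at -1.68 ± 0.43 (0.0493), and Fosl1 at -1.71 ± 0.38 (0.0209) and against that pair at -1.22 ± 0.37 (0.105). At 24 h (2.89% of all genes called, 1.54% lower) Jun was at -1.47 ± 0.25 (0.00163), Fosl1 at -1.39 ± 0.37 (0.0425) and Junb at -0.82 ± 0.22 (0.0452). Against WT replicates 1 and 2 these 3 passed with larger values of -1.76, -1.54 and -1.01, and Egr2 also passed (-1.42 ± 0.38, 0.0315), with 4.66% of all genes called. Untreated KO libraries had shown no such gap in Jun (-0.17 ± 0.25). Jund at 24 h was higher in KO (0.69 ± 0.19) and did not pass in the main fit (adjusted p = 0.0583). It passed without WT 24 h replicate 2 (0.76, 0.0432). DESeq2 called 4 members at each time, where it called 286 genes at 6 h and 475 at 24 h. It added Junb at 6 h (-0.83, 0.0152) and Jund at 24 h (0.69, 0.0267).

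Single libraries decided several of these calls. Without KO replicate 2 Jun no longer passed at 6 h (-1.63, adjusted p = 0.0604) or at 24 h (-1.32, 0.107). At 6 h Egr2 was lost without KO replicate 1 (-3.67, 0.0584) or 2 (-2.25, 0.245), and Fosl1 without WT replicate 3 (0.0614) or 4 (0.0512) or KO replicate 1 (0.230) or 2 (0.208). At 24 h Fosl1 was lost without WT replicate 1 (0.0766) or 4 (0.0844) or KO replicate 1 (0.108) or 2 (-1.03, 0.500), and Junb without WT replicate 1 (0.0723), 2 (0.0699) or 4 (0.0844) or KO replicate 1 (0.396) or 2 (0.159). Junb at 24 h was also lost with no filter on low counts (0.0511). With only the compared groups fitted, Fosl1 and Egr2 at 6 h (0.146 and 0.312) and Fosl1 and Junb at 24 h (0.106 and 0.135) did not pass.

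**Figure D4:**
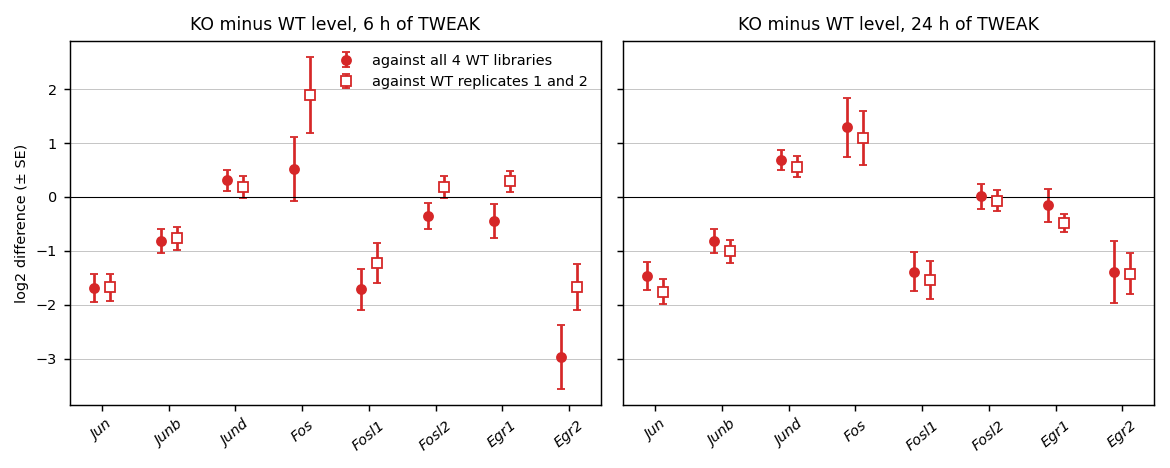
KO minus WT level on the log2 scale (y axis, ± SE) of 8 genes (x axis) in cells treated for 6 h (left) and 24 h (right), against all 4 WT libraries (filled circles) and against WT replicates 1 and 2 (open squares). Jun lies at -1.68 under both at 6 h, while Egr2 moves from -2.97 to -1.68.

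The make-up of each family's transcripts shifted with these changes. The shares are of UMIs counted at 3′ ends and are given as descriptions. Jund made up 46.3% ± 2.80 (SD, n = 4) of the Jun family's UMIs in untreated WT cells, 20.0% ± 2.15 at 6 h and 18.3% ± 2.86 at 24 h. In MUT its share went from 49.0% ± 2.81 (n = 2) to 21.4% ± 2.85 and 21.5% ± 0.568. In KO it went from 51.1% ± 4.20 to 41.3% ± 9.65 and 44.0% ± 1.36. So Jund was the most counted Jun transcript in untreated cells of all 3 genotypes, and the least counted in treated WT and MUT libraries. Fosl1 made up 51.0% ± 6.31 of the Fos family's UMIs in untreated WT cells and 72.2% ± 2.86 and 71.9% ± 6.23 after TWEAK. In KO its share was 39.3% ± 8.77, 49.7% ± 6.49 and 48.4% ± 7.13. Fos itself gave 0.465% to 7.30% of the family in any WT library.

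**Figure D5:**
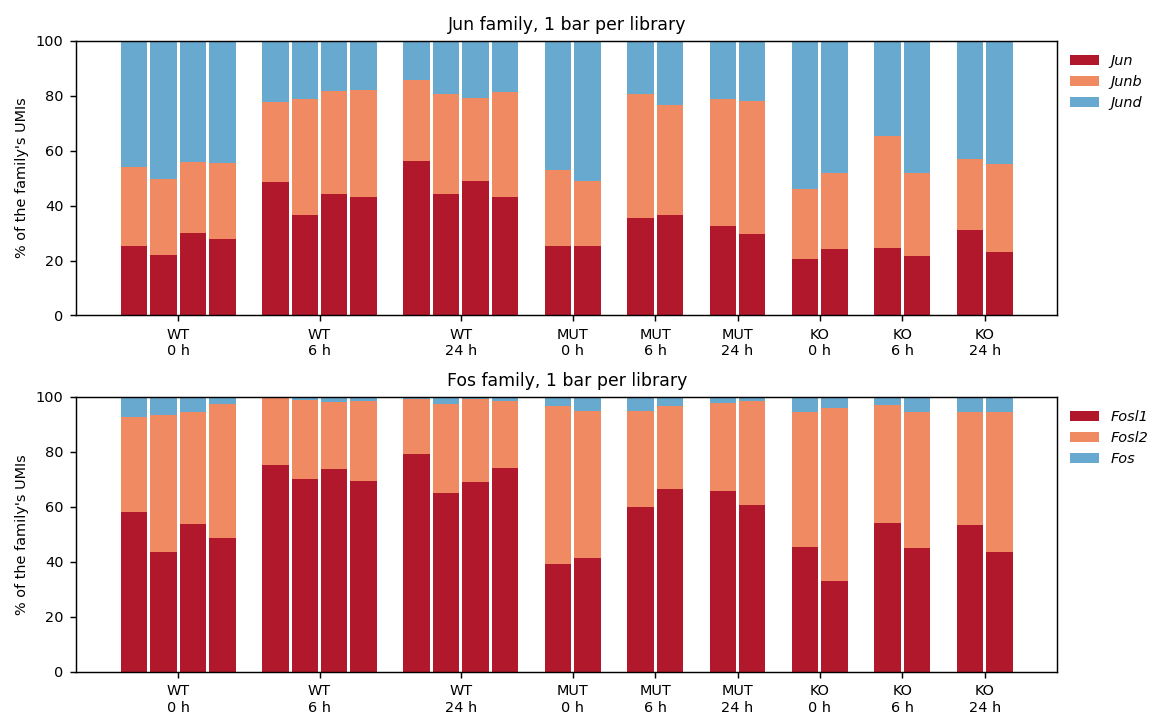
Share of the Jun family's UMIs (top) and of the Fos family's UMIs (bottom) held by each member, in % (y axis), with 1 bar per library grouped by genotype and hours of TWEAK (x axis). The Jund share in WT falls from 46.3% untreated to 20.0% at 6 h, and in KO it is 41.3% at 6 h.

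The genes around these factors were read from 6 lists, chosen with earlier results of these data known. Their counts beside the share of all genes are therefore descriptions and not tests. Of 13 tested genes known as AP-1 targets, 9 rose in WT at 6 h, where 6.41% of all genes were called and 4.35% higher. The list median log2 change was 1.88, against a median of -0.01 over all genes. At 24 h 5 rose, where 6.87% of all genes were called and 3.68% higher. The targets that rose at 6 h included Mmp9, a gelatinase (4.85 ± 0.67, adjusted p = 5.96e-05), Lif, an IL-6 family cytokine (3.27 ± 0.39, 8.97e-06), and Hbegf, an EGF receptor ligand (3.31 ± 0.53, 3.90e-04). In MUT 4 of the 13 rose at 6 h (1.98% of all genes called), led by Mmp3, a stromelysin (3.54 ± 0.61, 0.00296). In KO 0 of the 13 passed at 6 h (0.0794% of all genes called) or at 24 h (0%), where Lif was at 0.36 ± 0.71 and Mmp9 at 0.88 ± 1.11 at 6 h. The difference between the KO and WT responses passed for 0 of the 13 at 6 h (0.097% of all genes called) and at 24 h (0.265%). Levels in treated cells were compared after the data had been seen. At 6 h 4 of the 13 were lower in KO than in WT (1.27% of all genes called), with Lif at -3.14 ± 0.54 (adjusted p = 0.00254). At 24 h 1 was lower, Mmp9, and 1 higher, Fgf7 (2.89% of all genes called).

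The list of other immediate-early genes had 27 tested, of which 11 rose and 1, Per1, fell in WT at 6 h. Of all genes 6.41% were called there and 4.35% were higher. At 24 h 4 of them rose and 1 fell (6.87% of all genes called). Those rising at 6 h included Plk2 (1.40 ± 0.16, adjusted p = 6.59e-06), Myc, a growth regulator (1.29 ± 0.21, 4.15e-04), and Klf10 (1.71 ± 0.30, 8.60e-04). In MUT 5 of the 27 rose at 6 h (1.98% of all genes called) and in KO 0 did (0.0794%). The difference between the KO and WT responses passed for 0 of the 27 at 6 h (0.097% of all genes called) and at 24 h (0.265%). Between 6 and 24 h in WT 7 of the 27 fell (3.87% of all genes called), Ier2, Ccn1 and Ccn2 among them. Among partners and regulators, 1 of 10 tested AP-1 partner genes rose in WT at 6 h, Maff, a small Maf protein (1.57 ± 0.24, 2.27e-04). Of 6 serum response and ternary complex factors 1 rose, Elk4 (0.59 ± 0.16, 0.0312), and of 12 MAP kinase cascade genes 1, Map2k3 (0.82 ± 0.18, 0.00620). These counts stand beside 6.41% of all genes called, and nothing particular to the lists is read from them. Nab2, a corepressor that binds EGR proteins, fell by 0.86 ± 0.18 in WT at 6 h (0.00513) and by 0.94 ± 0.18 at 24 h (0.00193), and in MUT it fell at 24 h by 1.33 ± 0.26 (0.0122). The KO values of Nab2 were 0.07 ± 0.26 and 0.47 ± 0.25.

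Some members overlap a gene on the opposite strand, and whether the counting used strand is not given in the sources used here. Prdx2, opposite Junb, had 468 to 3683 UMIs per library and a WT value of -0.02 ± 0.12 at 6 h (adjusted p = 0.948). Junos, opposite Jun, had 0 to 12 UMIs per library. Ccdc85b, opposite Fosl1, and Gm11175, opposite Jund, were not analysed here.

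Across the 24 libraries, as a description over libraries that share treatment groups and library sets, Jun and Fosl1 varied together in log2 CPM (Pearson r = 0.92), as did Jun and Junb (0.83), whereas Jun and Jund had r = -0.56 and Jun and Egr1 0.42. Egr1 went most closely with Fosl2 among the members (0.81). Over all genes the pattern most like Jun was that of Slc20a1, a phosphate transporter (0.95), followed by Ptges (0.94) and Rnf19b (0.94), and that most like Junb was Birc3, an inhibitor of apoptosis (0.92), followed by Nfkbia (0.91) and Tnip1 (0.91). For Fosl1 the closest were Ptges, a prostaglandin synthase, Myc and Heatr1 (0.94, 0.94 and 0.93), and for Egr2 they were Errfi1, Foxs1 and Oaf (0.95, 0.93 and 0.93). For Jund they were Map1a, Scrn1 and Ckb (0.90, 0.90 and 0.88), and for Fosl2 Ptgs2, Arc and Clcf1 (0.88, 0.87 and 0.85).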

How the data were processed

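UMI counts per gene were measured in 24 libraries of 9 groups of genotype and time. The authors deposited one table of raw counts, which are whole numbers and not normalised, and per the submitters' processing notes cutadapt, STAR 2.7.10a, HTSeq, DESeq2 and the build GRCm38 were used. Every gene in the table reaches a count of 6 in some library. UMIs remove PCR copies, and totals of 889863 to 4342981 limit the precision for scarce genes.

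edgeR 4.0.16 (R 4.3.3) was applied to these counts. Its filterByExpr kept 11337 of 13479 genes, TMM scaled the libraries, and glmQLFit over all 9 groups with glmQLFTest gave 15 planned contrasts and 4 added ones, adjusted by Benjamini-Hochberg over all genes, with calls at 0.05. An SE is the log2 change divided by the square root of F. Correlations used log2 CPM with 2 as prior count. The members and the gene lists were chosen with earlier results of these data known, and genes of a list were named by the smallest adjusted p, up to 4 per contrast, among those past the test.

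Alternatives were RLE scaling, no filter, DESeq2 1.42.0, fits of the compared groups only, the WT pairs as groups, the replicate number as a block within genotype and leaving out each library. Same-numbered libraries correlated in their deviations from the group means at 0.328 to 0.688 in WT, 0.00108 to 0.0710 in MUT and -0.282 to 0.0996 in KO. Differently numbered WT libraries correlated at -0.598 to 0.505, with the highest value between replicates 3 and 4. The numbers thus pair the WT libraries in part, with overlap inside that library set, and they were not seen to pair MUT or KO libraries. Blocked values stand beside results whose call they change. Steps were tested on simulated data.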

Additional observations from a re-analysis of the deposited data

Results flagged for a closer look

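In groups of 4 WT libraries, 2 values stood apart from the others, and chance alone sets 1 value apart in about 1 of 20 groups. Egr2 in WT replicate 4 at 24 h was at 13.1 CPM, below 3 libraries that agreed closely, so the gap is small in size. Egr3 in WT replicate 1 at 6 h was at 0 CPM in the shallowest library, where 0 counts allow up to 3.37 CPM.

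For 3 values all changes of 1 genotype had one sign and all changes of another the opposite sign, though some changes were very small. Fos at 24 h had a mean log2 change of -1.09 in WT, with -0.008 in replicate 4, and 0.22 in KO. Fosl2 at 6 h had 0.46 in WT and -0.15 in KO, and 0.57 in MUT and -0.15 in KO. Its WT changes were 0.05, 0.06, 0.95 and 0.79 in replicates 1 to 4. These differences come from changes of each treated library from the untreated library of the same number, though the numbers were not seen to pair MUT or KO libraries. They were not tested in that form, and in the fitted differences of response no member passed.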

How the results depend on the processing

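No member's called direction reversed under any alternative run, and of the settings tried, RLE scaling changed no count of members or genes by over 1.5 times. Sign changes of values that passed in neither fit were not counted. Numbers below are genes past the test out of 11337, as reported and then under the alternative, unless members are named. Causes of the shifts were not tested.

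With the replicate number as a block, genes in WT went from 727 to 1314 at 6 h, from 779 to 1770 at 24 h and from 439 to 1323 between the times. In MUT they went from 225 to 853, from 78 to 355 (members from 1 to 3) and from 66 to 972 (members from 0 to 2), and in KO from 9 to 14 at 6 h and from 0 to 4 at 24 h. The numbers were not seen to pair the MUT or KO libraries. The KO minus WT response went from 11 to 29 genes at 6 h and from 30 to 160 at 24 h, with 1 member, Jun, in place of 0 at each time, and the MUT minus WT response at 24 h from 0 to 9. The block changed no other count of members by over 1.5 times. With the KO numbers crossed in that block, an alternative added after seeing the data, the KO counts were 16 at 6 h and 4 at 24 h, and those of the KO minus WT response 32 and 222 genes with 1 member each. Comparisons between genotypes at one time have no block, since numbers do not pair genotypes.

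With the WT pairs as groups, genes in WT became 1271 at 6 h, 1760 at 24 h and 1213 between the times (members from 1 to 2). MUT counts became 887, 338 (3 members) and 1072 (4 members), KO at 24 h became 3, and the KO minus WT response at 24 h became 110 (1 member). Treated KO against WT at 24 h went from 328 to 528 and MUT against WT from 0 to 3 at 6 h and from 130 to 229 at 24 h, where its member was lost (0). Untreated contrasts went from 1 to 3 in KO and from 0 to 1 in MUT.

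With only the compared groups fitted, WT fell to 223, 411 and 12 genes (0 members between the times), while MUT rose to 1399 (8 members), 1205 (5 members) and 2233 (6 members) and KO at 24 h to 4. The KO minus WT response fell to 0 and 9, treated KO against WT to 26 (1 member) and 201, and MUT against WT at 24 h to 5 (0 members).

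DESeq2 gave 120 genes (2 members) in MUT at 24 h, 283 (2 members) between 6 and 24 h, 3 in KO at 24 h, 20 (1 member) and 63 for the KO minus WT response and 5 for that of MUT at 24 h. It gave 0 and 2 for untreated KO and MUT, 286 for KO against WT at 6 h, and 14 and 305 for MUT against WT. Without the filter KO at 24 h had 1 gene.

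Leaving out 1 library at a time gave 428 to 938 genes in WT at 6 h (4 to 6 members), 518 to 734 at 24 h (3 to 6) and 134 to 599 between the times (0 to 2). It gave in MUT 32 to 63 genes (0 to 2 members), 15 to 25 (0 members) and 0 to 2, and in KO 1 to 6, 0 to 1 and 0 to 2. The KO minus WT response ran from 0 to 13 and from 7 to 32, that of MUT from 0 to 1 and from 0 to 2, and untreated KO against WT from 1 to 2. Treated KO against WT gave 33 to 486 genes (0 to 3 members) and 51 to 432 (0 to 3), and treated MUT against WT 0 to 2 and 2 to 87 (0 to 1). Where a group was left with 1 library, that library was assumed to vary like the others. Fos, Egr2 and Egr3 are limited most by depth, with as few as 1, 7 and 0 UMIs in a library.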
